A study of Mus musculus with 12 samples.

Results

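The semaphorins, plexins, ephrins, Eph receptors, Slits, Robo receptors, netrins and Unc5 receptors are secreted or membrane-bound cues and the receptors that read them. They were first described as guides of growing axons, and they also steer adhesion, migration and vessel growth outside the nervous system. Their genes were taken by symbol from the deposited count table, as every name beginning with Plxna to Plxnd or Unc5a to Unc5d, or with Sema, Efna, Efnb, Epha, Ephb, Slit, Robo or Ntn followed directly by a digit, with Sema4b left out. This gave 66 of the 21556 genes of the table, namely 19 semaphorins, 9 plexins, 8 ephrins, 14 Eph receptors, 3 Slits, 4 Robo receptors, 4 netrins and 5 genes under Unc5. One of the last is Unc5cl, which the pattern takes although it is not a netrin receptor.

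The RNA came from primary fibroblasts of mouse abdominal skin, cultured from wild type mice (WT, C57BL/6) or from mice carrying the targeted Nox4 allele of the strain B6.129-Nox4tm1Kkr/J (Nox4 KO), a loss of NADPH oxidase 4, an enzyme that makes reactive oxygen species. All cells were starved for 24 h, and TGF-β2 at 10 ng/ml was then given for 24 h or left out. Each of the 4 groups (unstimulated and stimulated WT, unstimulated and stimulated Nox4 KO) held 3 biological replicates, sequenced as 12 libraries. WT and Nox4 KO animals descended from heterozygous crosses and were then bred as separate litters, and the knockout is present in every cell of the animal rather than in fibroblasts alone. The age and number of the animals behind the cultures are not given in the sources used here.

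The libraries held between 35118344 and 43796260 counted reads. The summed level of 9 fibroblast markers was between 5464 and 8035 RPKM (reads per kilobase of exon, scaled to the total count of the library), whereas 6 keratinocyte markers summed to at most 0.92 RPKM and 6 endothelial markers to at most 5.38. Of Schwann cell and neuron genes, Tubb3 was at 37.4 to 49.6 RPKM in unstimulated and 54.1 to 108.6 in stimulated WT, and at 29.7 to 51.9 in unstimulated and 44.2 to 80.7 in stimulated Nox4 KO, while Sox10, S100b and Elavl4 were under 1 RPKM in every library. The 6 mural cell markers summed to between 40.1 and 80.1 RPKM, mostly Myh11 and Cspg4. With TGF-β2 the mean of Myh11 went from 40.9 to 18.2 RPKM in WT and from 42.2 to 25.2 in Nox4 KO. Cspg4 went the other way, from 6.84 to 30.5 in WT and from 10.6 to 39.3 in Nox4 KO. A macrophage list is given with Plxnc1. The part of these cells in the results was not tested. Reads of Nox4 were 203 to 398 in WT control and 102 to 207 in Nox4 KO control. The count of a whole gene cannot tell a deleted stretch from the rest of the transcript, so it does not test the genotype. Nox4 rose with TGF-β2 in WT, with a log2 fold change of 2.83 (SE 0.32, adjusted p 0.00214), and its reads also rose in Nox4 KO, by 2.65 (SE 0.36, adjusted p 0.00575). Acta2, which encodes smooth muscle α-actin, did not pass the test in either genotype, at 0.13 (SE 0.19, adjusted p 0.664) in WT and -0.06 (SE 0.17, adjusted p 0.82) in Nox4 KO. Throughout, p-values come from the quasi-likelihood test of edgeR, adjusted by the Benjamini-Hochberg method over all genes tested, and a gene is said to rise or fall where its adjusted p was under 0.05. Replicate values are listed in the order of replicates 1, 2 and 3.

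Semaphorins act mainly through plexins. Most of the secreted class 3 semaphorins need a neuropilin beside a class A plexin, whereas Sema3e binds Plxnd1 directly. The GPI-anchored Sema7a binds Plxnc1. Ephrins of class A are held in the membrane by a GPI anchor and those of class B by a transmembrane segment, and both bind Eph receptor tyrosine kinases on a neighbouring cell. Slit proteins are read by Robo receptors, and netrins by Dcc, Neo1 and the Unc5 receptors.

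The proximal promoters of Sema7a and of Plxnc1 are printed here because this ligand and its receptor gave the largest rise and the deepest fall among the guidance genes tested in both genotypes, and that of Plxna3 because it fell beside them. Each line holds the 250 bases before the RefSeq start of the gene (RefSeq, GRCm38.p6), 5′ to 3′ on the strand of the gene, and capitals mark letters that match one of 4 short motifs searched on both strands. The motifs were CAGAC and GGCGCC, which SMAD proteins are known to bind, TGANTCA for AP-1, and CACCTG, an E-box.
Sema7a, chr9:57939862-57940111, plus strand: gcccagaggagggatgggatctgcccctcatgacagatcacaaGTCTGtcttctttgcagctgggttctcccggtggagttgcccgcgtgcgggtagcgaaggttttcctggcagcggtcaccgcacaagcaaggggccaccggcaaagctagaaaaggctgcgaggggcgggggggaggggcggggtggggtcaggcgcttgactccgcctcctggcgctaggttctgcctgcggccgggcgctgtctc
Plxnc1, chr10:94944846-94945095, minus strand: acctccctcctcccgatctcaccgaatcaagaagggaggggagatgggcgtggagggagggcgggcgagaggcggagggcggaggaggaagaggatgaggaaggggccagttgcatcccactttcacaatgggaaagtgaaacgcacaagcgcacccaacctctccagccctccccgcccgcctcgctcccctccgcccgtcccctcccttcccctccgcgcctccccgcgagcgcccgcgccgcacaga
Plxna3, chrX:74328816-74329065, plus strand: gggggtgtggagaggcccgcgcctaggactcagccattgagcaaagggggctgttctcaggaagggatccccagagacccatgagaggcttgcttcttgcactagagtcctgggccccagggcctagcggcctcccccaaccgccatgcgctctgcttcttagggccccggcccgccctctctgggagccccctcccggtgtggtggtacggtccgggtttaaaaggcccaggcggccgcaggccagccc
The Sema7a window held 1 match, CAGAC read on the opposite strand, 207 bases before the start, and the other two held none of the 4 motifs. A promoter was on file for 57 of the 66 genes, in 72 windows, since 11 genes had more than 1. CAGAC was in 54.2% of these windows and in 42.2% of all 32851 promoter windows of this length, and GGCGCC was in 19.4% and 9.59%. TGANTCA was in 4.17% against 6.75%, and CACCTG in 15.3% against 17.2%. The windows of the guidance genes were also richer in G and C, with a median of 64.0% against 52.4% of all windows, and the part of this difference in the motif counts was not tested. No motif overlapped another in the 3 sequences printed. A match is a match of letters, and no binding was measured here.

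Expression was concentrated in a few genes. Of the 66 genes, 41 reached a mean of 1 RPKM in at least 1 group, 31 reached it in all 4 groups and 25 in none, and 16 reached 10 RPKM. The genes under 1 RPKM included 6 semaphorins, 6 Eph receptors, 3 of the 4 Robo receptors and 4 of the 5 genes under Unc5. Epha6 had no read in any of the 12 libraries, and Epha10, Ntn5 and Unc5cl had at most 3 reads in each. For a transcript of 2 kb in the smallest library, 3 reads correspond to 0.0427 RPKM, which is the limit that a count of 0 allows and covers counting error only.

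**Figure D1:**
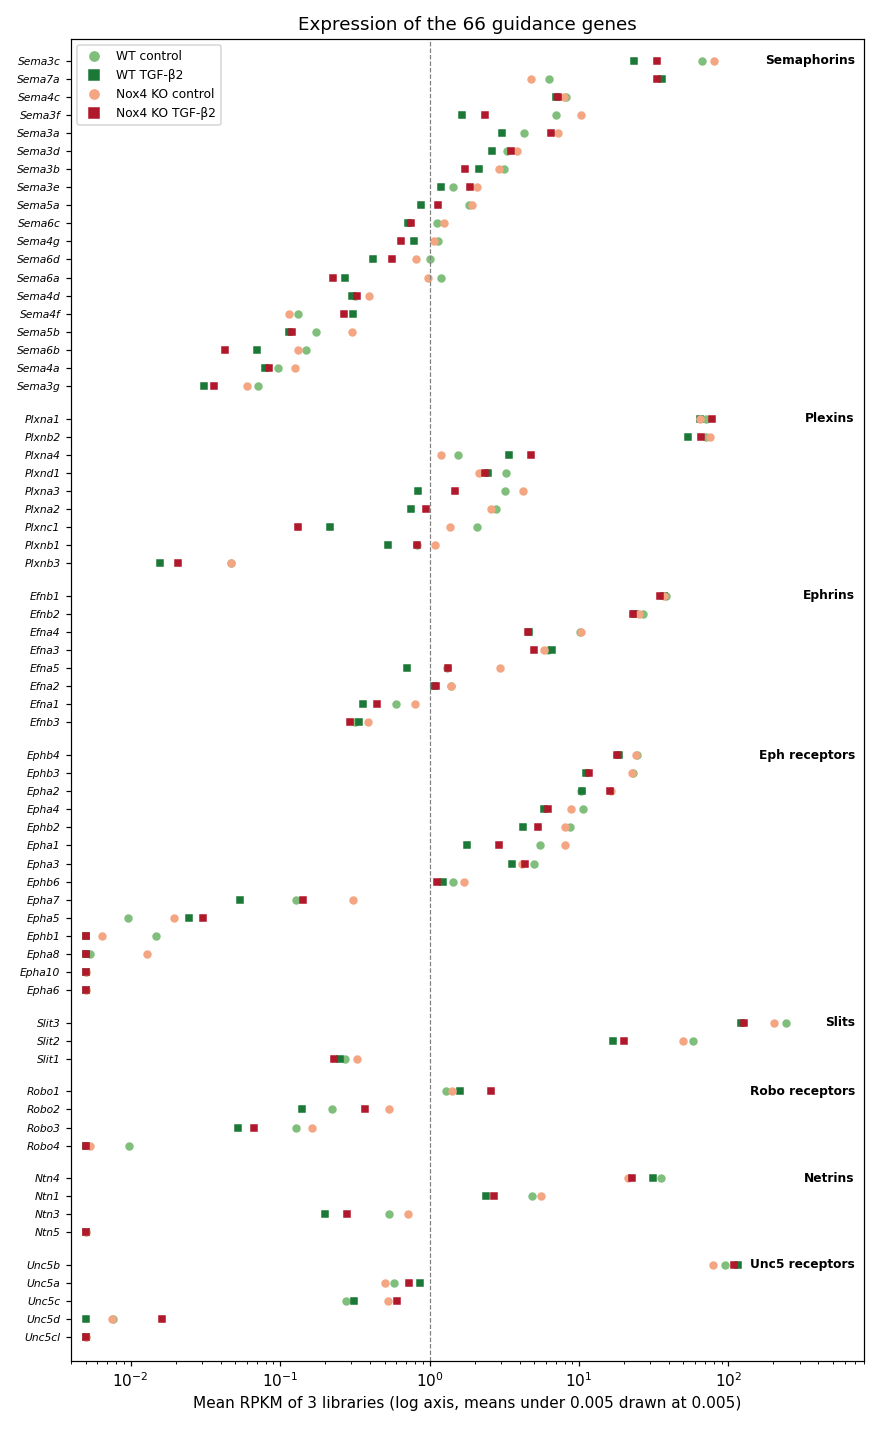
Mean RPKM of 3 libraries (horizontal log axis) for each of the 66 guidance genes, by family, in the 4 groups (circles, control; squares, TGF-β2; greens, WT; reds, Nox4 KO). The dashed line marks 1 RPKM, which 41 genes reached in at least 1 group, and Slit3 lies farthest to the right among all families.

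The 5 genes with the highest mean over all libraries were Slit3, Unc5b, Plxna1, Plxnb2 and Sema3c, 1 each of a Slit, a netrin receptor and a semaphorin, and a pair of plexins. Slit3, a secreted ligand, was at 238, 220.0 and 274 RPKM in unstimulated WT and 138, 74.2 and 150.0 in stimulated WT, and at 222, 204 and 179 in unstimulated and 133, 126 and 119 in stimulated Nox4 KO. Both stimulated groups lay below both control groups, with no overlap. Unc5b, a receptor of netrins, was at 89.3, 105 and 91.2 RPKM in unstimulated WT and 126, 108 and 114 in stimulated WT, and at 79.2, 90.1 and 66.2 in unstimulated and 118, 119.7 and 89.1 in stimulated Nox4 KO. Its WT groups did not overlap, whereas the lowest stimulated Nox4 KO library lay below the highest unstimulated one. Plxna1, which pairs with neuropilins as a receptor of class 3 semaphorins, was at 69.0, 77.1 and 65.3 RPKM in unstimulated WT and 72.3, 48.1 and 74.4 in stimulated WT, and at 58.5, 65.5 and 70.4 in unstimulated and 78.2, 77.2 and 76.2 in stimulated Nox4 KO. Here the Nox4 KO groups were apart and the WT groups overlapped. Plxnb2, a receptor of class 4 semaphorins, was at 68.8, 71.6 and 71.8 RPKM in unstimulated WT and 57.8, 47.5 and 56.5 in stimulated WT, and at 75.3, 70.9 and 79.8 in unstimulated and 66.8, 61.0 and 69.1 in stimulated Nox4 KO. Its stimulated libraries lay below the control libraries in each genotype. In the order of these 5 genes only Slit3 stood above the others in every control library. In Nox4 KO control the range of Unc5b overlapped those of Plxna1 and Plxnb2, which did not overlap each other, and Sema3c, described with the semaphorins, ran from 34.6 to 170.2 RPKM within that group. The exon lengths used were those of protein-coding transcripts, and lengths from all transcripts place Slit2 at a mean of 23.0 rather than 58.3 RPKM in WT control.

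In WT fibroblasts TGF-β2 lowered more of these genes than it raised. Of the 40 genes that passed the expression limit, 15 fell and 2 rose, the pair being Sema7a and Plxna4. The genes that fell were Sema3f, Sema5a, Sema6a, Sema6c, Plxna2, Plxna3, Plxnc1, Efna4, Epha1, Epha4, Ephb2, Ephb3, Slit2, Slit3 and Ntn1. These are 37.5% lower and 5% higher, beside 12.2% lower and 10.4% higher among all 10743 genes tested in WT. Leaving out 1 library gave 10 to 17 lower and 1 to 2 higher. With a change of at least 2-fold, 10 fell and 2 rose, beside backgrounds of 5.09% and 2.62%. The median log2 fold change of the 40 genes was -0.47 and that of all genes tested -0.0027. Groups did not overlap for 21 genes lower and 3 higher with TGF-β2, beside 24.9% lower and 20.3% higher of all genes tested. Of the 40, 9 passed the expression limit through the control group alone, and 6 of these fell (Sema5a, Sema6a, Sema6c, Plxna2, Plxna3 and Plxnc1). Among the 31 that passed it in both groups 9 fell and 2 rose. Without any expression limit, 16 fell and 3 rose of 65 genes with reads, beside 9.04% and 7.39% of all genes. Those added were Sema4f among the genes that rose and Sema6d and Ntn3 among those that fell, while Sema6c no longer passed. Bulk RNA cannot tell fewer cells expressing a gene from less RNA per cell, and this holds for every change given here.

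In Nox4 KO fibroblasts 11 of 39 genes tested fell and 3 rose, beside backgrounds of 14.9% lower and 15.1% higher. Leaving out 1 library moved these counts to between 5 and 13 lower and 1 and 4 higher, the lowest being 5 without control replicate 1 or stimulated replicate 2. Those that rose were Sema7a, Plxna4 and Plxna1, and those that fell were Sema3f, Sema4g, Sema5a, Sema6c, Plxna2, Plxna3, Plxnc1, Efna4, Ephb3, Slit2 and Slit3. At least 2-fold changes were 6 lower and 2 higher, beside 4.58% and 2.22% of all genes. The median log2 fold change was -0.33, and -0.0144 over all 10809 genes tested. Groups did not overlap for 17 genes lower and 3 higher, beside 31.5% and 17.0% of all genes. The limit was passed through the control group alone by 5 genes, 4 of which fell (Sema4g, Sema6c, Plxna2 and Plxnc1). Among the 34 that passed it in both groups 7 fell and 3 rose. Without any expression limit 13 fell and 4 rose of 65 genes, beside 9.38% and 9.89% of all genes. Samples with the same replicate number deviated together in Nox4 KO, and a fit with the replicate number as a block gave 21 genes lower and 5 higher, beside 28.8% and 25.2% of all genes. The blocked fit added Sema3b, Sema3c, Plxnb1, Efna5, Epha1, Epha4, Ephb2, Ephb4, Ephb6 and Ntn1 to those that fell, and Unc5b and Robo1 to those that rose. Without the 2 libraries of Nox4 KO replicate 3, a check chosen after the data were seen, 16 fell and 7 rose, beside 19.4% and 19.9%.

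The responses of the genotypes rest on separate libraries. Of the 38 genes tested in both, 33 had the same sign, 12 passed the test in both and all 12 in the same direction, 4 passed in WT alone and 2 in Nox4 KO alone, and 20 in neither. Over these 38 genes the log2 fold changes had a Pearson correlation of 0.964 and a Spearman correlation of 0.920 across genes, which are not independent replicates. That a gene passed in a single genotype does not show a difference between the genotypes, and the test of that difference is given with the genotype comparisons.

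**Figure D2:**
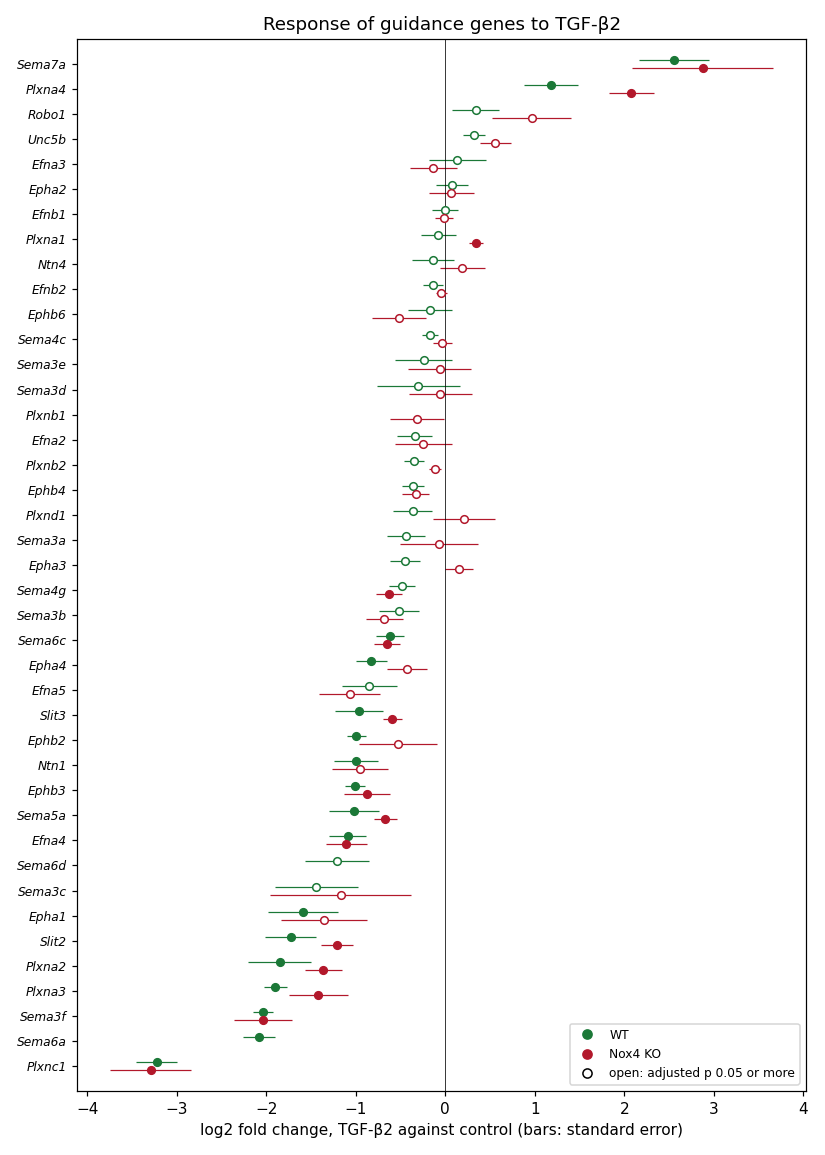
The log2 fold change with TGF-β2 (horizontal axis, bars for the standard error) of each guidance gene tested in WT (green) or Nox4 KO (red), ordered by the WT value. Filled circles passed at an adjusted p under 0.05, with Sema7a and Plxna4 at the top and Plxnc1 at the bottom in both genotypes.

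Sema7a was the semaphorin that rose. It was at 8.82, 5.89 and 4.23 RPKM in unstimulated and 52.9, 28.4 and 27.0 in stimulated WT, and at 4.45, 7.82 and 2.09 RPKM in unstimulated and 43.1, 48.4 and 8.15 in stimulated Nox4 KO. Every stimulated library lay above every control library of its genotype, but stimulated replicate 3 of Nox4 KO, at 8.15 RPKM, was close to control replicate 2. The rise was 2.56 (SE 0.39, adjusted p 0.00576) in log2 in WT, or 5.88-fold, and 2.88 (SE 0.79, adjusted p 0.0384) in Nox4 KO. Without the Nox4 KO replicate 3 pair the rise was 2.98 (SE 0.29, adjusted p 0.00493). In Nox4 KO the gene no longer passed without any 1 of Nox4 KO control replicates 1, 2 and 3 or Nox4 KO TGF-β2 replicates 1 and 2 (adjusted p 0.0639 to 0.12).

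Plxnc1, the plexin that binds Sema7a, moved the other way. It was at 2.61, 1.91 and 1.70 RPKM in unstimulated and 0.192, 0.251 and 0.206 in stimulated WT, which rests on 499 to 669 and 56 to 69 reads. In Nox4 KO it was at 1.21, 2.12 and 0.753 RPKM in control and 0.134, 0.160 and 0.101 with TGF-β2. All stimulated libraries lay far below their controls. Plxnc1 fell by 3.23 on the log2 scale in WT (SE 0.23, adjusted p 0.000595), or 9.35-fold, and by 3.29 in Nox4 KO (SE 0.45, adjusted p 0.00581), or 9.79-fold. It passed the expression limit through the control group alone in both genotypes, the group where it was high. Plxnc1 is also known from myeloid cells. The summed RPKM of 6 macrophage markers (Adgre1, Csf1r, Cd68, Cd14, Ptprc and Lyz2) was 41.5, 23.9 and 108.4 in unstimulated and 31.2, 19.6 and 73.7 in stimulated WT, and 83.0, 30.9 and 18.9 in unstimulated and 59.7, 22.1 and 12.4 in stimulated Nox4 KO. No marker of the list was at 0 in all libraries, the stimulated library was lower for each replicate number in both genotypes, and Lyz2 made up most of each sum. The part of these markers in the fall of Plxnc1 was not tested.

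Among the secreted class 3 semaphorins, Sema3f fell in both genotypes. Sema3f was at 6.44, 7.16 and 7.36 RPKM in unstimulated WT and 1.52, 1.82 and 1.64 in stimulated WT, and at 12.3, 7.43 and 11.01 in unstimulated and 2.00, 1.62 and 3.45 in stimulated Nox4 KO. The stimulated libraries of both genotypes lay below all control libraries. It fell by 2.03 on the log2 scale in WT (SE 0.11, adjusted p 0.000376) and by 2.04 in Nox4 KO (SE 0.32, adjusted p 0.00868), and it passed whichever library was left out. Sema3c, the most abundant semaphorin, was at 36.3, 49.0 and 114 RPKM in unstimulated WT and 19.2, 16.7 and 34.5 in stimulated WT, and at 34.9, 34.6 and 170.2 in unstimulated and 17.7, 21.2 and 60.7 in stimulated Nox4 KO. Its replicate 3 was the highest of each group, and control replicate 3 of Nox4 KO lay above every other library. The log2 fold change of Sema3c was -1.44 (SE 0.46, adjusted p 0.0664) in WT and -1.17 (SE 0.78, adjusted p 0.295) in Nox4 KO. With the replicate block it was -1.36 (SE 0.17, adjusted p 0.00366) in WT and -0.97 (SE 0.14, adjusted p 0.00382) in Nox4 KO. Sema3a, Sema3b, Sema3d and Sema3e had log2 fold changes between -0.52 and -0.24 in WT and between -0.68 and -0.05 in Nox4 KO, and none passed. In the blocked fit Sema3b gave -0.51 (SE 0.13, adjusted p 0.0328) in WT and -0.69 (SE 0.12, adjusted p 0.0072) in Nox4 KO. Sema3g was under 0.1 RPKM in every library.

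Neuropilins are no members of these families but are co-receptors of most class 3 semaphorins. Nrp2, the preferred co-receptor of Sema3f, rose, by 1.59 (SE 0.26, adjusted p 0.00698) in WT and 2.07 (SE 0.24, adjusted p 0.00426) in Nox4 KO. Nrp1, the preferred co-receptor of Sema3a, gave -0.98 (SE 0.24, adjusted p 0.0286) in WT and -0.21 (SE 0.24, adjusted p 0.541) in Nox4 KO. The fall of Nrp1 in WT no longer passed without any 1 of WT control replicates 1, 2 and 3 (adjusted p 0.0854 to 0.0987).

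Of the transmembrane semaphorins, 3 fell in WT. Sema6a, a ligand of Plxna2 and Plxna4, was at 1.22, 1.26 and 1.08 RPKM in unstimulated WT and 0.309, 0.274 and 0.238 in stimulated WT, and at 1.16, 0.884 and 0.908 in unstimulated and 0.216, 0.208 and 0.258 in stimulated Nox4 KO. In both genotypes the stimulated libraries lay below the controls. It fell by 2.08 on the log2 scale in WT (SE 0.18, adjusted p 0.00091), or 4.22-fold. In Nox4 KO its control mean was under 1 RPKM and it was not tested with the expression limit, and without that limit its log2 fold change there was -1.999 (SE 0.18, adjusted p 0.00181). Sema6c was at 1.204, 1.13 and 1.05 RPKM in unstimulated WT and 0.752, 0.686 and 0.702 in stimulated WT, and at 1.27, 1.18 and 1.31 in unstimulated and 0.869, 0.672 and 0.710 in stimulated Nox4 KO. Its groups were apart in both genotypes, and its log2 fold change was -0.62 (SE 0.16, adjusted p 0.0313) in WT and -0.65 (SE 0.15, adjusted p 0.0226) in Nox4 KO. It did not pass in WT without any 1 of WT control replicates 1, 2 and 3 or WT TGF-β2 replicates 1 and 3 (adjusted p 0.06 to 0.123), nor without the expression limit (adjusted p 0.06), and did not pass in Nox4 KO without any 1 of Nox4 KO control replicates 1, 2 and 3 or Nox4 KO TGF-β2 replicate 2 (adjusted p 0.0533 to 0.0911) or without the replicate 3 pair (adjusted p 0.0664).

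Sema5a, whose extracellular part carries thrombospondin repeats, was at 2.12, 1.51 and 1.86 RPKM in unstimulated WT and 1.15, 0.571 and 0.905 in stimulated WT, and at 2.07, 1.81 and 1.91 in unstimulated and 1.28, 1.19 and 0.965 in stimulated Nox4 KO. No stimulated library reached a control library of its genotype. Its log2 fold change was -1.02 (SE 0.28, adjusted p 0.0402) in WT and -0.67 (SE 0.13, adjusted p 0.0145) in Nox4 KO. The call was lost in WT without any 1 of WT control replicates 1, 2 and 3 or WT TGF-β2 replicate 3 (adjusted p 0.0709 to 0.134) and in Nox4 KO without any 1 of Nox4 KO control replicate 1 or Nox4 KO TGF-β2 replicate 2 (adjusted p 0.0517 to 0.0554) or in a fit of all 12 libraries (adjusted p 0.0703). Sema4g was at 1.10, 1.10 and 1.199 RPKM in unstimulated WT and 0.782, 0.740 and 0.839 in stimulated WT, and at 1.19, 1.03 and 0.973 in unstimulated and 0.676, 0.632 and 0.636 in stimulated Nox4 KO. Stimulated libraries were again the lower ones in both genotypes, with -0.49 (SE 0.14, adjusted p 0.0517) in WT, which did not pass, and -0.63 (SE 0.14, adjusted p 0.0228) in Nox4 KO. The Nox4 KO call was lost without any 1 of Nox4 KO control replicates 1 and 2 or Nox4 KO TGF-β2 replicates 1 and 2 (adjusted p 0.062 to 0.0896). Sema4c, a ligand of Plxnb2, had a mean of 8.17 RPKM in WT control and 7.05 with TGF-β2, with a log2 fold change of -0.17 (SE 0.09, adjusted p 0.204). Sema4f was at most 0.342 RPKM in any library, and without the expression limit it rose in both genotypes, by 1.29 in WT (adjusted p 0.0282) and 1.33 in Nox4 KO (adjusted p 0.0374).

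The class A plexins, the signalling partners of class 3 and class 6 semaphorins, did not move together. Plxna4 was at 1.46, 1.26 and 1.93 RPKM in unstimulated WT and 3.73, 2.04 and 4.40 in stimulated WT, and at 1.48, 1.09 and 0.991 in unstimulated and 6.26, 4.18 and 3.78 in stimulated Nox4 KO. Each stimulated library lay above the controls of its genotype. It rose by 1.18 (SE 0.30, adjusted p 0.0321) in log2 in WT, or 2.27-fold, and by 2.08 (SE 0.25, adjusted p 0.00449) in Nox4 KO, or 4.23-fold. The WT call was lost without any 1 of WT control replicates 1, 2 and 3 or WT TGF-β2 replicates 1 and 3 (adjusted p 0.0622 to 0.113), whereas the Nox4 KO call was kept whichever library was left out. Plxna2 was at 2.24, 2.14 and 3.98 RPKM in unstimulated WT and 0.720, 0.468 and 1.05 in stimulated WT, and at 2.58, 2.401 and 2.76 in unstimulated and 0.798, 0.767 and 1.28 in stimulated Nox4 KO. Its groups did not overlap, and control replicate 3 of WT was the highest library. It fell by 1.85 on the log2 scale in WT (SE 0.35, adjusted p 0.0123) and by 1.36 in Nox4 KO (SE 0.20, adjusted p 0.0072), and did not pass in WT without WT TGF-β2 replicate 1 (adjusted p 0.0535).

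Plxna3 was at 3.05, 2.97 and 3.65 RPKM in unstimulated WT and 0.784, 0.798 and 0.936 in stimulated WT, and at 4.48, 3.20 and 4.99 in unstimulated and 1.28, 0.957 and 2.23 in stimulated Nox4 KO. The stimulated libraries lay below the controls in both genotypes, and those of WT were all under 1 RPKM. It fell by 1.90 on the log2 scale in WT (SE 0.13, adjusted p 0.000478) and by 1.42 in Nox4 KO (SE 0.33, adjusted p 0.0241). In Nox4 KO it no longer passed without any 1 of Nox4 KO control replicates 1 and 3 or Nox4 KO TGF-β2 replicates 1 and 2 (adjusted p 0.0586 to 0.077). Plxna1, whose values are given above, had a log2 fold change of -0.08 (SE 0.19, adjusted p 0.801) in WT and rose by 0.34 (SE 0.08, adjusted p 0.0225) in Nox4 KO, or 1.27-fold. That call was lost without any 1 of Nox4 KO control replicates 1 and 2 or Nox4 KO TGF-β2 replicates 1 and 2 (adjusted p 0.0608 to 0.0881) and in a fit of all 12 libraries (adjusted p 0.11). Of the other plexins, Plxnb2 gave -0.35 (SE 0.11, adjusted p 0.0678) in WT and -0.11 (SE 0.07, adjusted p 0.26) in Nox4 KO. Plxnd1, the direct receptor of Sema3e, gave -0.36 (SE 0.22, adjusted p 0.271) and 0.21 (SE 0.35, adjusted p 0.673). Plxnb1 passed the expression limit in Nox4 KO alone, with -0.31 (SE 0.30, adjusted p 0.461), or -0.31 (SE 0.09, adjusted p 0.0312) with the replicate block, and Plxnb3 stayed under 0.1 RPKM.

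**Figure D3:**
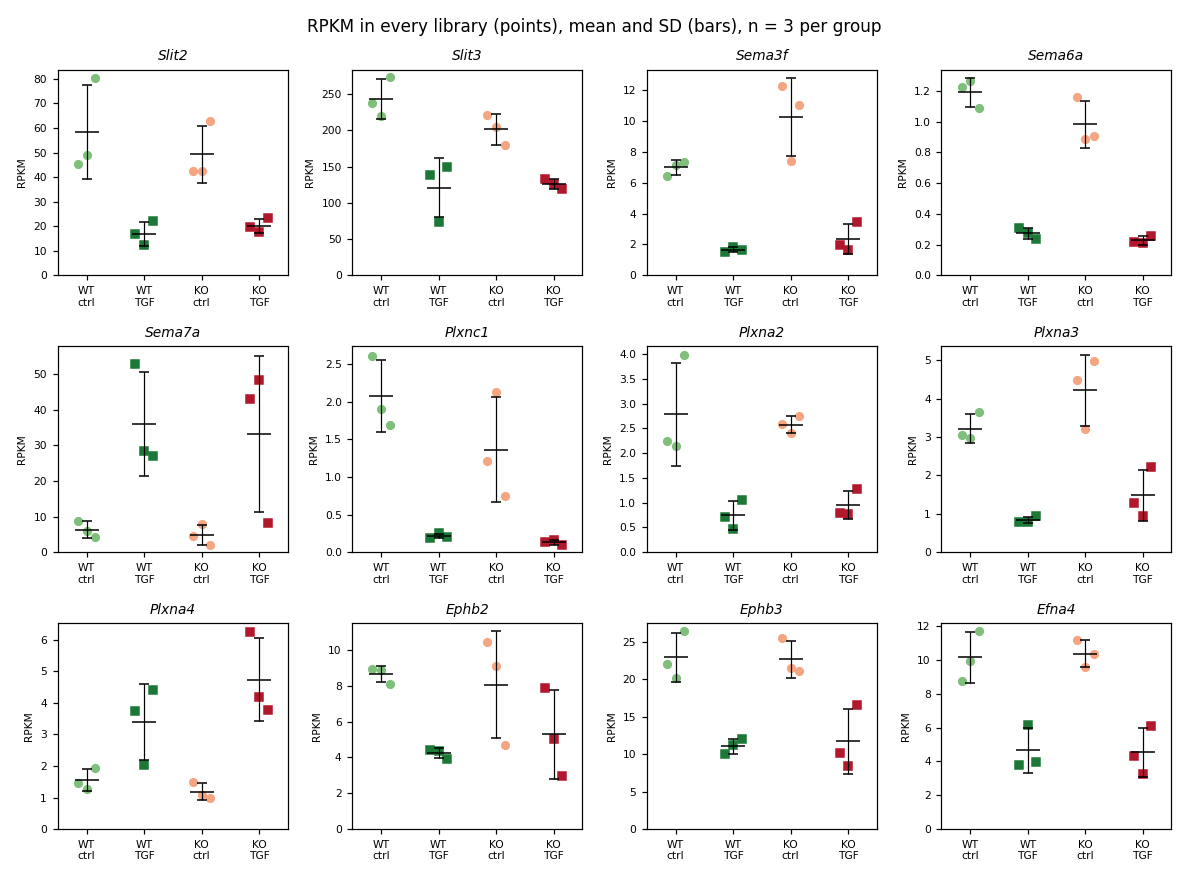
RPKM (vertical axes, linear and from 0) of 12 guidance genes in each library, with replicates 1 to 3 from left to right in each group and the mean and SD of n = 3 in black. Sema7a and Plxna4 are higher with TGF-β2 in both genotypes and the other genes are lower, and the groups overlap only for Ephb2 in Nox4 KO.

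Slit2 and Slit3 fell together, while the Robo receptors that read them were scarce. Slit2 was at 45.5, 49.0 and 80.3 RPKM in unstimulated WT and 16.8, 12.2 and 22.0 in stimulated WT, and at 42.7, 42.6 and 62.8 in unstimulated and 19.5, 17.5 and 23.2 in stimulated Nox4 KO. Both stimulated groups lay below both control groups. It fell by 1.73 on the log2 scale in WT (SE 0.29, adjusted p 0.00756), or 3.31-fold, and by 1.21 in Nox4 KO (SE 0.18, adjusted p 0.00692), or 2.31-fold, and passed whichever library was left out. Slit3, whose values are given above, had a log2 fold change of -0.97 (SE 0.27, adjusted p 0.0426) in WT and -0.59 (SE 0.11, adjusted p 0.0117) in Nox4 KO. Its call was lost in WT without any 1 of WT control replicates 1, 2 and 3 or WT TGF-β2 replicate 1 (adjusted p 0.0842 to 0.137), and in Nox4 KO without Nox4 KO TGF-β2 replicate 2 (adjusted p 0.0554) or in a fit of all 12 libraries (adjusted p 0.0933). The summed RPKM of the 3 Slits was 302.3 ± 45.7 (SD, n = 3) in WT control and 138.0 ± 45.3 with TGF-β2, and 251.5 ± 11.8 in Nox4 KO control and 146.6 ± 5.70 with TGF-β2. The 4 Robo receptors summed to means between 1.66 and 3.02 RPKM over the 4 groups. Robo1 had a log2 fold change of 0.34 (SE 0.26, adjusted p 0.38) in WT and 0.96 (SE 0.44, adjusted p 0.145) in Nox4 KO, where the blocked fit gave 0.94 (SE 0.08, adjusted p 0.000648). Robo4, the endothelial Robo receptor, had a mean under 0.01 RPKM in every group.

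Of the Eph receptors, Ephb2, Ephb3, Epha1 and Epha4 fell in WT, and Ephb3 in Nox4 KO. Ephb3 was at 22.1, 20.1 and 26.5 RPKM in unstimulated WT and 10.0, 11.2 and 12.0 in stimulated WT, and at 25.5, 21.5 and 21.1 in unstimulated and 10.1, 8.37 and 16.6 in stimulated Nox4 KO. Controls and stimulated libraries were apart in both genotypes. Its log2 fold change was -1.01 (SE 0.12, adjusted p 0.00228) in WT and -0.87 (SE 0.25, adjusted p 0.0449) in Nox4 KO, where it did not pass without any 1 of Nox4 KO control replicates 1, 2 and 3 or Nox4 KO TGF-β2 replicates 1 and 2 (adjusted p 0.0716 to 0.124). Ephb2 was at 8.94, 8.87 and 8.12 RPKM in unstimulated WT and 4.44, 4.35 and 3.90 in stimulated WT, and at 10.4, 9.08 and 4.68 in unstimulated and 7.87, 5.02 and 2.96 in stimulated Nox4 KO. The WT groups were tight and apart, whereas the Nox4 KO groups overlapped, with replicate 3 the lowest of each. Its log2 fold change was -0.99 (SE 0.10, adjusted p 0.00164) in WT and -0.53 (SE 0.43, adjusted p 0.387) in Nox4 KO, where the blocked fit gave -0.55 (SE 0.09, adjusted p 0.00533).

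Epha4, which binds ephrins of both classes, was at 10.8, 11.8 and 9.21 RPKM in unstimulated WT and 6.79, 4.80 and 5.91 in stimulated WT, and at 10.3, 9.91 and 6.38 in unstimulated and 6.93, 6.72 and 5.01 in stimulated Nox4 KO. The WT groups were apart and the Nox4 KO groups overlapped. It gave -0.82 (SE 0.17, adjusted p 0.0176) in WT and -0.43 (SE 0.23, adjusted p 0.196) in Nox4 KO, or -0.41 (SE 0.07, adjusted p 0.005) with the replicate block. The WT call was lost without any 1 of WT control replicates 1 and 2 (adjusted p 0.0679 to 0.074). Epha1 was at 3.69, 8.12 and 4.69 RPKM in unstimulated WT and 1.34, 2.69 and 1.33 in stimulated WT, and at 6.68, 5.59 and 11.8 in unstimulated and 2.00, 1.75 and 5.07 in stimulated Nox4 KO. Stimulated libraries were below the controls in both genotypes, with -1.59 (SE 0.39, adjusted p 0.0284) in WT, -1.36 (SE 0.48, adjusted p 0.0779) in Nox4 KO and -1.44 (SE 0.13, adjusted p 0.000798) there with the block. Without any 1 of WT control replicates 2 and 3 or WT TGF-β2 replicates 1 and 3 (adjusted p 0.0568 to 0.0926) Epha1 did not pass in WT. The span of Epha1 overlaps that of Zyx on the opposite strand, a gene at a mean of 311.8 RPKM, and exons were not compared. Since no source tells whether counting was strand-specific, the value of Epha1 is uncertain. The other Eph receptors above 1 RPKM were Epha2, Epha3, Ephb4 and Ephb6, with log2 fold changes from -0.45 to 0.07 in WT and -0.52 to 0.15 in Nox4 KO, and none of them passed in either genotype without the block. In the blocked fit of Nox4 KO, Ephb4, the receptor of Efnb2, gave -0.32 (SE 0.06, adjusted p 0.00972) and the kinase-dead Ephb6 gave -0.53 (SE 0.10, adjusted p 0.00824). In that of WT, Ephb4 gave -0.36 (SE 0.09, adjusted p 0.0308) and Epha3 gave -0.47 (SE 0.12, adjusted p 0.0347). All 14 Eph receptors together summed to a mean of 88.97 ± 5.17 RPKM (SD, n = 3) in unstimulated and 56.9 ± 1.66 in stimulated WT, and 94.2 ± 6.75 in unstimulated and 65.9 ± 7.18 in stimulated Nox4 KO.

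Among the ephrins only Efna4 passed without the block. Efna4, a GPI-anchored ligand, was at 8.76, 9.96 and 11.7 RPKM in unstimulated WT and 3.81, 6.18 and 3.96 in stimulated WT, and at 11.2, 9.59 and 10.3 in unstimulated and 4.30, 3.24 and 6.11 in stimulated Nox4 KO. The stimulated libraries lay below the controls of each genotype. Its log2 fold change was -1.09 (SE 0.21, adjusted p 0.0125) in WT and -1.11 (SE 0.23, adjusted p 0.017) in Nox4 KO, and the latter did not pass without any 1 of Nox4 KO control replicate 1 or Nox4 KO TGF-β2 replicate 1 (adjusted p 0.0573 to 0.0575). Efnb1 and Efnb2, the most abundant ephrins, gave -0.00 (SE 0.14, adjusted p 0.991) and -0.14 (SE 0.11, adjusted p 0.41) in WT and -0.01 (SE 0.10, adjusted p 0.928) and -0.04 (SE 0.06, adjusted p 0.615) in Nox4 KO. Their means lay between 34.5 and 38.0 RPKM for Efnb1 and between 23.1 and 26.7 RPKM for Efnb2. Efna4 stands next to Efna3 and Efna1 on chromosome 3, with Efna4 at chr3:89333390-89338028, Efna3 at chr3:89313899-89322965 and Efna1 at chr3:89271733-89281142 (GRCm38). Efna3 gave 0.13 (SE 0.32, adjusted p 0.785) in WT and -0.13 (SE 0.26, adjusted p 0.723) in Nox4 KO, and Efna1 stayed under 1 RPKM. Sema3f and Sema3b are neighbours on chromosome 9, at chr9:107681500-107710475 and chr9:107597674-107609229, and their log2 fold changes in WT were -2.03 and -0.52.

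Netrins and their receptors were represented by Ntn4, Ntn1 and Unc5b. Ntn1, the founding netrin, was at 3.95, 3.67 and 7.03 RPKM in unstimulated WT and 2.28, 2.18 and 2.65 in stimulated WT, and at 3.80, 5.07 and 7.85 in unstimulated and 2.08, 2.39 and 3.65 in stimulated Nox4 KO. The groups were apart in both genotypes, and it gave -0.995 (SE 0.24, adjusted p 0.0289) in WT and -0.95 (SE 0.31, adjusted p 0.0641) in Nox4 KO, or -0.93 (SE 0.07, adjusted p 0.0005) with the replicate block. The WT call was lost without any 1 of WT control replicate 1 or WT TGF-β2 replicates 1 and 2 (adjusted p 0.0501 to 0.0918). Ntn4, the most abundant netrin, had means of 35.1 RPKM in WT control and 31.2 with TGF-β2, and 21.1 and 22.8 in Nox4 KO, with log2 fold changes of -0.13 (SE 0.24, adjusted p 0.715) and 0.19 (SE 0.25, adjusted p 0.595). Unc5b, whose values are given above, gave 0.33 (SE 0.12, adjusted p 0.0995) in WT and 0.56 (SE 0.17, adjusted p 0.0531) in Nox4 KO, or 0.56 (SE 0.06, adjusted p 0.00112) with the block. Of the other netrin receptors, Dcc had at most 1 read in any library. Neo1, which also binds RGM proteins, fell, by 0.93 on the log2 scale in WT (SE 0.12, adjusted p 0.00385) and by 0.66 in Nox4 KO (SE 0.10, adjusted p 0.00839). Unc5a, Unc5c and Unc5d were under 1 RPKM in every library. The span of Ntn3 overlaps that of Tbc1d24 on the same strand, and Ntn3 stayed under 1 RPKM.

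A list of 50 co-receptors, other ligands and cytoplasmic mediators of these receptors gave 38 tested genes in each genotype. In WT 5 rose and 9 fell, which is 13.2% and 23.7%, beside 10.4% and 12.2% of all genes. In Nox4 KO 11 rose and 5 fell, which is 28.9% and 13.2%, beside 15.1% and 14.9%. The fit with the replicate block gave 15 higher and 11 lower in Nox4 KO, beside 25.2% and 28.8%. Those that rose in both genotypes were Ngef, an exchange factor downstream of Epha4, the neuropilin Nrp2, the kinase Fyn and the actin regulator Enah. With 1 library left out, the Enah call was lost in 4 of 6 fits in WT and 3 of 6 in Nox4 KO. The Fyn call was lost in 2 of 6 in WT. Ngef was at 0.375, 0.352 and 0.522 RPKM in unstimulated WT and 1.30, 1.36 and 2.09 in stimulated WT, and at 0.640, 0.461 and 0.551 in unstimulated and 1.57, 1.41 and 1.34 in stimulated Nox4 KO. The stimulated libraries were above the controls in both genotypes, with a rise of 1.97 (SE 0.26, adjusted p 0.0037) in WT and 1.47 (SE 0.17, adjusted p 0.00425) in Nox4 KO. Ngef passed the expression limit through the stimulated group alone in both genotypes, the group where it was high, as did Flrt3, which did not pass the test, and Met passed it in WT through the control group alone. Among the genes over the limit in both groups, 4 rose and 8 fell of 35 in WT and 10 rose and 5 fell of 36 in Nox4 KO. Dpysl3 passed in WT, with 0.69 (SE 0.11, adjusted p 0.00718), and gave 1.00 (SE 0.34, adjusted p 0.0706) in Nox4 KO, or 0.96 (SE 0.08, adjusted p 0.000739) with the replicate block. Its WT call was lost in a fit of all 12 libraries (adjusted p 0.0735). Flrt2, Gipc1, Abl1, Abl2, Mical1, Mical2 and Mical3 passed in Nox4 KO and not in WT. In the fit of all 12 libraries Gipc1, Abl1, Abl2 and Mical3 no longer passed in Nox4 KO (adjusted p 0.0507 to 0.181). Dropping single libraries lost the Mical1 call in 6 of 6 fits and the Mical3 call in 3 of 6. It lost those of Mical2, Abl1, Abl2 and Gipc1 in 4 of 6 each, and that of Flrt2 in 0. Mical1 and Mical3 also missed the threshold when the replicate 3 pair was dropped (adjusted p 0.0548 and 0.0725). With the replicate block Flrt2 and Gipc1 passed in WT too (adjusted p 0.00651 and 0.0261). Those that fell in both genotypes were the actin-binding Ablim1, the RGM receptor Neo1, its ligand Rgma and the collapsin response mediator Dpysl2. The Nox4 KO call of Ablim1 was lost in 5 of 6 fits with 1 library left out (adjusted p 0.0513 to 0.0991). Rgma fell by 1.44 on the log2 scale in WT (SE 0.25, adjusted p 0.00928) and by 1.01 in Nox4 KO (SE 0.12, adjusted p 0.00426). Met, Nrp1, Rnd3, Srgap1 and Srgap3, the last pair being regulators of Rac and Cdc42 downstream of Robo receptors, fell in WT and did not pass in Nox4 KO, and Rnd2 fell in Nox4 KO and did not pass in WT. Leaving out 1 library lost the WT call of Srgap1 in 4 of 6 fits and of Srgap3 in 1 of 6. It lost the Nox4 KO call of Rnd2 in 4 of 6. With the block Met, Rnd3 and Srgap1 also passed in Nox4 KO, at -0.99 (SE 0.08, adjusted p 0.000661), -0.57 (SE 0.05, adjusted p 0.000974) and -0.504 (SE 0.08, adjusted p 0.0055). None of the 38 passed the test of a difference between the genotypes' responses. Leaving out 1 library moved the counts to between 3 and 9 higher in WT, and to between 4 and 11 higher and 3 and 8 lower in Nox4 KO.

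**Figure D4:**
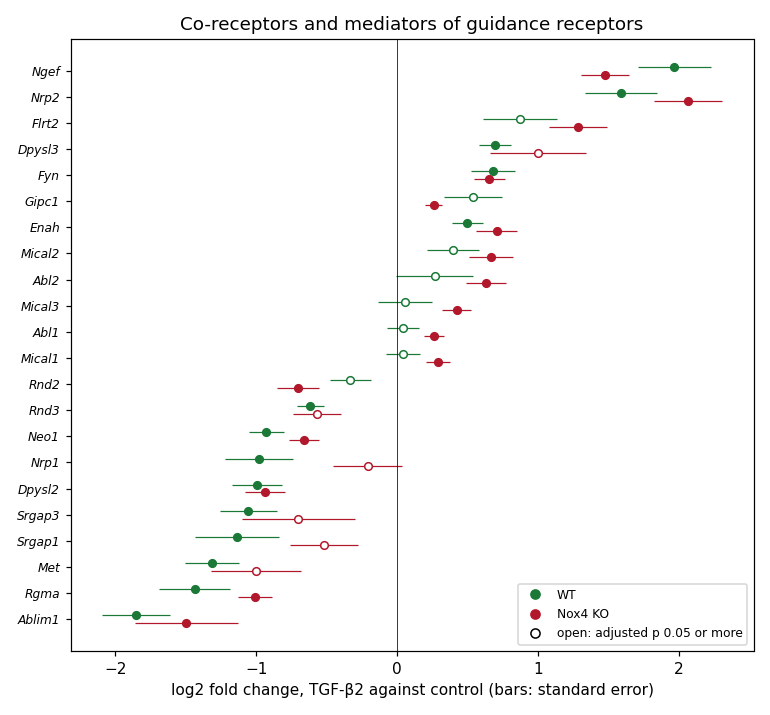
The log2 fold change with TGF-β2 (horizontal axis, bars for the standard error) of the 22 co-receptors and mediators that passed in at least 1 genotype, in WT (green) and Nox4 KO (red). Filled circles passed at an adjusted p under 0.05, and Ngef and Nrp2 are at the top in both genotypes while Ablim1 and Rgma are at the bottom.

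Between the genotypes no guidance gene passed the test. Without stimulation 0 of 41 genes passed, beside 0% of all genes, and 6 of 41 had an unadjusted p under 0.05, beside 5.54% of all genes. DESeq2 also called none. The median log2 difference, Nox4 KO against WT, was -0.079 over the 41 genes, of which 16 were above 0, and 0.0017 over all genes. The 3 smallest p-values belonged to Plxnd1, Efna5 and Sema3f. Plxnd1 was at 3.19, 2.69 and 3.93 RPKM in WT control and 2.21, 2.498 and 1.75 in Nox4 KO control. Efna5, a GPI-anchored ephrin, was at 0.770, 1.52 and 1.64 RPKM in WT control and 3.95, 1.81 and 3.10 in Nox4 KO control. The groups did not overlap for either gene, nor for Sema3f, whose values are given above. Their log2 differences, Nox4 KO against WT, were -0.64 (SE 0.18, unadjusted p 0.0119, adjusted p 0.828) for Plxnd1, 1.14 (SE 0.37, unadjusted p 0.02, adjusted p 0.828) for Efna5 and 0.51 (SE 0.18, unadjusted p 0.0263, adjusted p 0.828) for Sema3f. Without overlap 3 genes were higher and 1 was lower in the knockout, beside 10.9% and 2.74% of all genes.

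With TGF-β2, 0 of 34 genes passed, beside 0% of all genes, and 5 of 34 had an unadjusted p under 0.05, beside 3.23% of all genes. DESeq2 again called none. The median log2 difference, Nox4 KO against WT, was 0.23 over the 34 genes, of which 23 were above 0, and 0.0020 over all genes. Sema3e was at 1.23, 0.993 and 1.33 RPKM in stimulated WT and 2.09, 1.71 and 1.76 in stimulated Nox4 KO. Efna5 was at 0.578, 0.671 and 0.866 and 1.43, 0.906 and 1.64 RPKM, and Epha2, a receptor of class A ephrins, at 9.34, 10.7 and 11.5 and 12.8, 14.2 and 21.2 RPKM in the same groups. Each of these 3 genes was higher in all 3 Nox4 KO libraries than in any WT library, and none passed after adjustment. The log2 differences were 0.66 (SE 0.18, unadjusted p 0.00739, adjusted p 0.838) for Sema3e, 0.93 (SE 0.28, unadjusted p 0.0125, adjusted p 0.838) for Efna5 and 0.63 (SE 0.20, unadjusted p 0.0157, adjusted p 0.838) for Epha2. Sema5a, Efna5 and Plxna3 passed the expression limit here through Nox4 KO alone, the WT mean of Efna5 being 0.705 RPKM. Each of them had to have the higher mean in Nox4 KO, and all are part of the 34 genes behind the median and counts. In this comparison 7 genes were higher and 1 lower in Nox4 KO without overlap, beside 4.16% and 5.92% of all genes. Efna5 and Plxna3 are among these 7.

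The response itself was compared between the genotypes in 1 model of all 12 libraries, without the replicate number. Same-numbered Nox4 KO libraries deviated together, and this model does not remove the shift they share. A fit of the difference with the replicate block is not given, so whether differences would pass with it was not tested. In the model without the block, 0 of 41 genes passed, beside 0% of all genes. An unadjusted p under 0.05 was found for 1 of them, beside 2.68% of all genes. DESeq2 called none. Over the 41 genes the median difference of the log2 fold changes, Nox4 KO minus WT, was 0.25, with 34 above 0 and 7 below, beside a median of 0.0010 over all genes. The gene under 0.05 was Epha3, at 4.44, 4.99 and 5.66 RPKM in unstimulated WT and 3.20, 3.05 and 4.47 in stimulated WT, and at 4.99, 3.60 and 3.96 in unstimulated and 5.11, 3.96 and 4.08 in stimulated Nox4 KO. WT libraries were lower with TGF-β2 except for 1 overlap, and Nox4 KO libraries were not. The difference of its log2 fold changes, Nox4 KO minus WT, was 0.62 (SE 0.25, unadjusted p 0.0313, adjusted p 0.854). Next came Plxna4, with 0.91 (SE 0.43, unadjusted p 0.0562, adjusted p 0.854), and Plxna1, with 0.43 (SE 0.23, unadjusted p 0.0918, adjusted p 0.854). For Sema7a the difference was 0.33 (SE 0.89, adjusted p 0.942) and for Plxnc1 -0.05 (SE 0.48, adjusted p 0.988). A p that misses the threshold does not show that the genotypes respond alike.

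Nox4 KO replicate 3 differed from the other two replicates in both its libraries. Sema3c, Sema3a, Robo1 and Robo2 were highest in it and Sema7a and Ephb2 lowest, in control and with TGF-β2 alike, genes that were chosen after their values were seen. This was not particular to Nox4 KO for all of them. Replicate 3 of WT was also highest for Sema3c and Robo2 and lowest for Sema7a and Ephb2 in both groups. It was not the highest for Sema3a or Robo1. Sema3a was at 5.88, 4.93 and 10.9 RPKM in Nox4 KO control and 4.69, 4.21 and 10.52 with TGF-β2. Robo2 was at 0.227, 0.193 and 1.18 and 0.191, 0.146 and 0.775 RPKM in the same order. In both the shift between replicates exceeded the shift with TGF-β2. Stimulated replicate 2 of WT also stood apart. It was the lowest of its group for 24 of the 41 genes at 1 RPKM or more, against 4 to 20 for the other libraries in their groups, among them Slit3, Slit2, Plxna1, Plxna2, Plxna4 and Sema5a, and the 66 genes summed to 531.8 RPKM in it and to 681.9 and 677.3 in the other two. Without it 17 genes fell and 2 rose in WT, and the share of all genes that passed in this fit was not computed. In the same fit Slit3 gave -0.70 (SE 0.10, adjusted p 0.00754), Plxna4 1.45 (SE 0.17, adjusted p 0.0047) and Plxna1 0.11 (SE 0.10, adjusted p 0.448), and Ntn1 no longer passed (adjusted p 0.0621). The labels do not say what a replicate number stands for, and replicate and culture cannot be told apart. Over the 66 genes the summed level was 876.5 ± 76.7 RPKM (SD, n = 3) in WT control and 630.3 ± 85.4 with TGF-β2, and 817.6 ± 66.5 in Nox4 KO control and 669.1 ± 8.10 with TGF-β2.

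**Figure D5:**
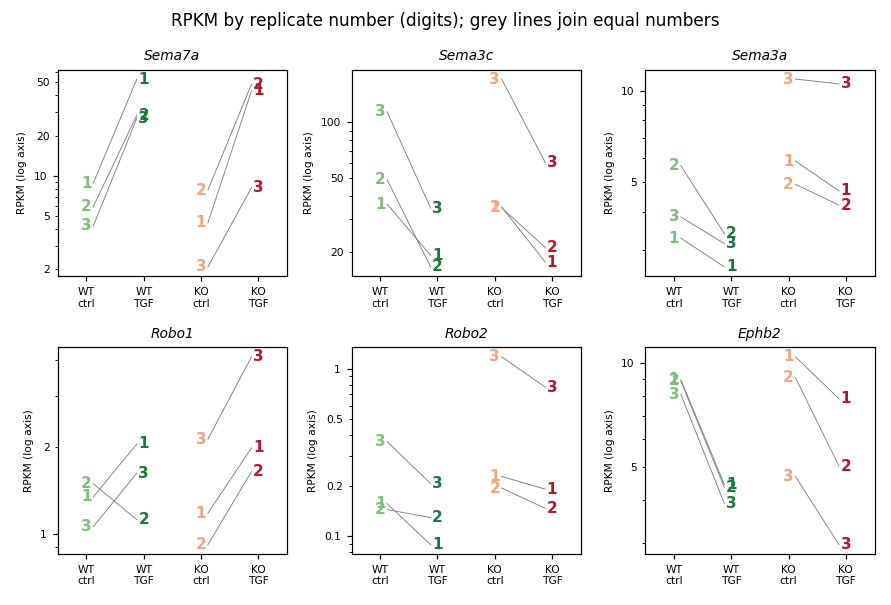
RPKM (vertical log axes) of 6 guidance genes, with each library drawn as its replicate number and grey lines joining equal numbers of a genotype. In Nox4 KO replicate 3 is the highest for Sema3c, Sema3a, Robo1 and Robo2 and the lowest for Sema7a and Ephb2 in both groups. In WT replicate 3 is likewise the highest for Sema3c and Robo2 and the lowest for Sema7a and Ephb2.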

How the data were processed

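Total RNA of 12 cultures was sequenced as single-end reads of 50 bases. Per the labels and the study's methods, STAR 2.4 was used by the authors to align reads to GRCm38, ambiguous reads were dropped, and featureCounts 1.4.6 summed reads over all exons of a gene's protein-coding transcripts. The deposited values are these raw counts per gene, neither normalized nor filtered. Whether the counting used strand is not given in the sources used here. Groups were taken from the sample titles, and every column was assigned.

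Symbols and exon lengths came from GENCODE M21 by Ensembl identifier (21099 of 21556 lengths from protein-coding transcripts), and RPKM used the total count of each library. Counts were tested with edgeR 4.0.16 in R 4.3.3 (TMM normalization, glmQLFit and glmQLFTest) on the 6 libraries of each comparison, or on all 12 for the difference of responses, among genes with a mean of at least 1 RPKM in a compared group. Genes were called at a Benjamini-Hochberg adjusted p under 0.05. SE is the log2 fold change over the square root of F. The scripts were tested on simulated data. The totals of 35118344 to 43796260 reads set the counting precision.

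Values in every library are given for genes that passed in either response, for the 3 smallest p-values of each genotype comparison, and for the 5 most abundant genes. The members and lists were chosen with earlier results of these data known. Same-numbered Nox4 KO libraries deviated together (correlations 0.771, 0.685 and 0.748 over 10890 genes), so blocked values stand beside those results, and the labels do not say where the pairing comes from. Alternatives were DESeq2 1.42.0, other normalization and filters, all libraries in 1 fit, the replicate block and each library left out.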

Additional observations from a re-analysis of the deposited data

How the results depend on the processing

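DESeq2, RLE normalization, no expression limit, filterByExpr, 1 fit of all 12 libraries and leaving out each library were tried on every count. The replicate block was used for the response within each genotype. For guidance genes the replicate block gave 5 higher and 21 lower in Nox4 KO, a limit of at least 2-fold gave 6 lower there, and leaving out the Nox4 KO replicate 3 pair (chosen after the data were seen) gave 7 higher. For the co-receptors and mediators, 2-fold changes or more numbered 2 up and 5 down in WT and 3 up and 2 down in Nox4 KO, where those down were 9 with DESeq2, 8 with all 12 libraries and 11 with the block. With each library left out in turn, guidance genes that rose in WT were 1 to 2 and those that fell 10 to 17, and in Nox4 KO 1 to 4 rose and 5 to 13 fell. For fits with 1 library left out the shares of all genes were not computed. In WT only leaving out stimulated replicate 2 left the count of those that rose at 2. In Nox4 KO the lowest counts came without control replicate 1 or stimulated replicate 2 (5 lower in each), and 1 rose without control replicate 1 or 2 or stimulated replicate 1 or 2. Co-receptors and mediators that rose were 3 to 9 in WT (3 without control replicate 2 or stimulated replicate 1, 9 without stimulated replicate 2) and 4 to 11 in Nox4 KO (4 without control replicate 1 or stimulated replicate 2), and those that fell were 6 to 10 in WT and 3 to 8 in Nox4 KO (8 without stimulated replicate 3). Counts between genotypes and in the test of the responses' difference stayed at 0 under these settings. No values with the replicate block are given for those comparisons.

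The calls of 9 of 17 guidance genes in WT (Efna4, Ephb2, Ephb3, Plxna3, Plxnc1, Sema3f, Sema6a, Sema7a and Slit2) and of 5 of 14 in Nox4 KO (Plxna2, Plxna4, Plxnc1, Sema3f and Slit2) were kept under every setting in which they could be tested. Without control replicate 2, Plxnc1 was under the expression limit in Nox4 KO. Of 5060 single-gene values under other settings, 4826 kept their direction and side of the threshold, 122 lost and 111 gained the call, and 1 reversed. Sema3e in Nox4 KO went from -0.06 to 0.52 (adjusted p 0.0414) without the replicate 3 pair, and the cause was not tested. In WT, replicate numbers correlated by 0.0723, 0.437 and 0.532, so they were not taken to pair the samples. The replicate block there gave 2 higher and 21 lower, beside 12.3% and 16.4% of all genes. It added Sema3b, Sema3c, Sema6d, Efna5, Epha3 and Ephb4 to those that fell. Low counts limit the genes under 1 RPKM.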
